A study of Mus musculus with 11 samples.

Results

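Dilated and hypertrophic hearts of one transgenic mouse line were compared directly on 4 arrays, each of which paired the ventricles of 1 mouse with a dilated heart (Dil) and 1 mouse with a concentrically hypertrophied heart (Hyp). Earlier results of these data were known when the comparison was chosen. Its arrays are 4 of the 11 analysed here and were identified by their titles. They measured 8106 named genes on all 4 arrays, of 8146 named genes on the slide, among 12097 features that also include unnamed spots. Every mouse was a male of the TG1306/1R line on a C57/BL6 background, about 60 weeks old, and both groups were heterozygous carriers of the same transgene, so the comparison holds genotype, age and sex constant. The published line overexpresses angiotensinogen in the heart under a cardiomyocyte promoter, alpha-myosin heavy chain. RNA came from both ventricles with the septum, without separation of cells, and 1 mouse gave each sample. Littermates without the transgene (WT) were used only where stated. Mice carry the numbers 1 to 4 in each group, and the array that pairs Dil and Hyp of one number is called a set here.

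Angiotensinogen is the precursor of angiotensin II, a peptide that raises blood pressure and drives growth of heart muscle and deposition of matrix. A heart under such a stimulus can thicken its wall around a small chamber or enlarge its chamber with loss of pump function. Failing heart muscle is known for high natriuretic peptide expression, a shift away from fat as a fuel, altered calcium cycling and fibrosis.

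Hearts had been assigned to Dil or Hyp by chamber morphology, weight and hypertrophic marker expression, among other criteria. The cardiac weight index of the Dil mice in sets 1 to 4 was 8.1, 7.8, 7.8 and 9.2 mg/g, and that of the Hyp mice was 5.8, 5.4, 5.6 and 5.5 mg/g. The second label of Hyp3 gives 5.3 mg/g. The groups do not overlap, but the index was part of the selection and is therefore a description. Set 4 has the largest gap, at 3.7 mg/g, against 2.2 to 2.4 mg/g in the other sets. Because hypertrophic markers helped to sort the hearts, the values of such markers are descriptions too.

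All values are log2 ratios of Dil over Hyp, so that 1 is a doubling and a negative value is lower in Dil. The deposited ratio was read as Cy5 over Cy3 and its base as 2. Neither is stated in the sources used here. The reading is likely because Agt and Nppb then come out higher in carriers than in WT, and the other reading would turn every sign. Of 6 carrier and WT arrays in spot order, 1 goes against this for Agt: the array of Hyp3 and WT3 read -0.24 for Hyp minus WT, while the other 5 read 1.83 to 3.60. Through Dil3, on the other arrays of that set, the same difference was 1.70, and Nppb on the Hyp3 and WT3 array was 1.21. Without set 3, 0 features passed the test described below, and 65 were above and 17 below 0 on all remaining arrays with a mean of at least 0.5. Dil was labelled with Cy3 in sets 1 and 3 and with Cy5 in sets 2 and 4, so a dye effect cancels in the mean of the 4 arrays but not within 1 array.

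The 4 arrays were not alike. Over the 12097 features, the correlation of the turned ratios was 0.21 between sets 3 and 4, 0.18 between sets 1 and 3 and 0.13 between sets 1 and 4. Set 2 stood apart, with -0.24 against set 1, 0.04 against set 3 and -0.16 against set 4. Sets 1 and 2 have opposite dye orders, and before turning, as Cy5 over Cy3, they correlated at 0.24. For sets 1 and 4, 2 and 3, and 3 and 4, also of opposite order, that value was -0.13, -0.04 and -0.21. Sets 2 and 4 have the same dye order. The part of the dye in these correlations was not tested. The spread of the ratios, as a scaled median absolute deviation, was 0.127, 0.169, 0.236 and 0.250 in sets 1 to 4. Spots printed for the same gene correlated within an array at 0.27, 0.32, 0.39 and 0.51. Each array had a value at 17207 of 17664 spots. Brightness per spot was not used here, so the depth behind a ratio is unknown, and the number of pairs, 4, limits the precision. The labels name 8 separate mice. Errors below are moderated SEs of the limma fit over their 4 pairs, described next, unless another fit is named. They are taken after the dye term and share variance across features, so they can be smaller than the spread of the 4 values shows. For Hes1 the SE was 0.16 and the SD of the 4 values was 1.05.

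With limma on these 4 arrays and a term for the dye, 0 of 12097 features (0%) had a Benjamini-Hochberg adjusted p under 0.05. Of the same features, 509 had an unadjusted p under 0.05, below the 605 that 5% of them make. Stard10 had the lowest adjusted p, 0.689, and every other feature was at 0.999 or above. A fit over 10 arrays, which adds the comparisons with WT, has mice as random effects but counts its residual degrees of freedom over arrays, called 7 features (0.0579%): Amot, Kif5b, Nabp1, Rcan1, Usp28 and 1 unnamed spot higher, and Stard10 lower. With the remaining array put back in spot order, the same kind of fit over 11 arrays called 29 of 9863 features (0.294%), 24 higher and 5 lower in Dil. That order was found by matching the array to the other arrays of set 1, among them the direct array of Dil1 and Hyp1. These arrays are in the fit too, so its calls are not independent of the matching. When each set counted once, with its direct and its WT arrays combined, 0 features passed.

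The account below therefore rests on the values of the 4 pairs. A gene is described as higher or lower on all 4 arrays where all 4 ratios have one sign, which is not a test. Each ratio is an average over the gene's spots, and single spots can differ in sign. The background for each count of list members below is the share over all features. For the sign of the mean, 5908 of the 12097 features were above 0 and 6189 below 0. Of all features, 736 (6.08%) were above 0 and 788 (6.51%) below 0 on all 4 arrays. Of these, 73 features (0.603%) were above 0 with a mean of at least 0.5, and 20 (0.165%) were below 0 with a mean of that size. They hold 54 named genes, 36 higher and 18 lower in Dil. Sets 3 and 4 carry the larger values in both directions: the median over the 36 genes was 0.44, 0.44, 0.84 and 0.99 in sets 1 to 4, and over the 18 genes -0.39, -0.43, -0.82 and -1.05. The value nearest 0 lay in set 2 for 26 of the 54 genes and in set 1 for 16, and the value farthest from 0 lay in set 4 for 28 and in set 3 for 17.

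**Figure D1:**
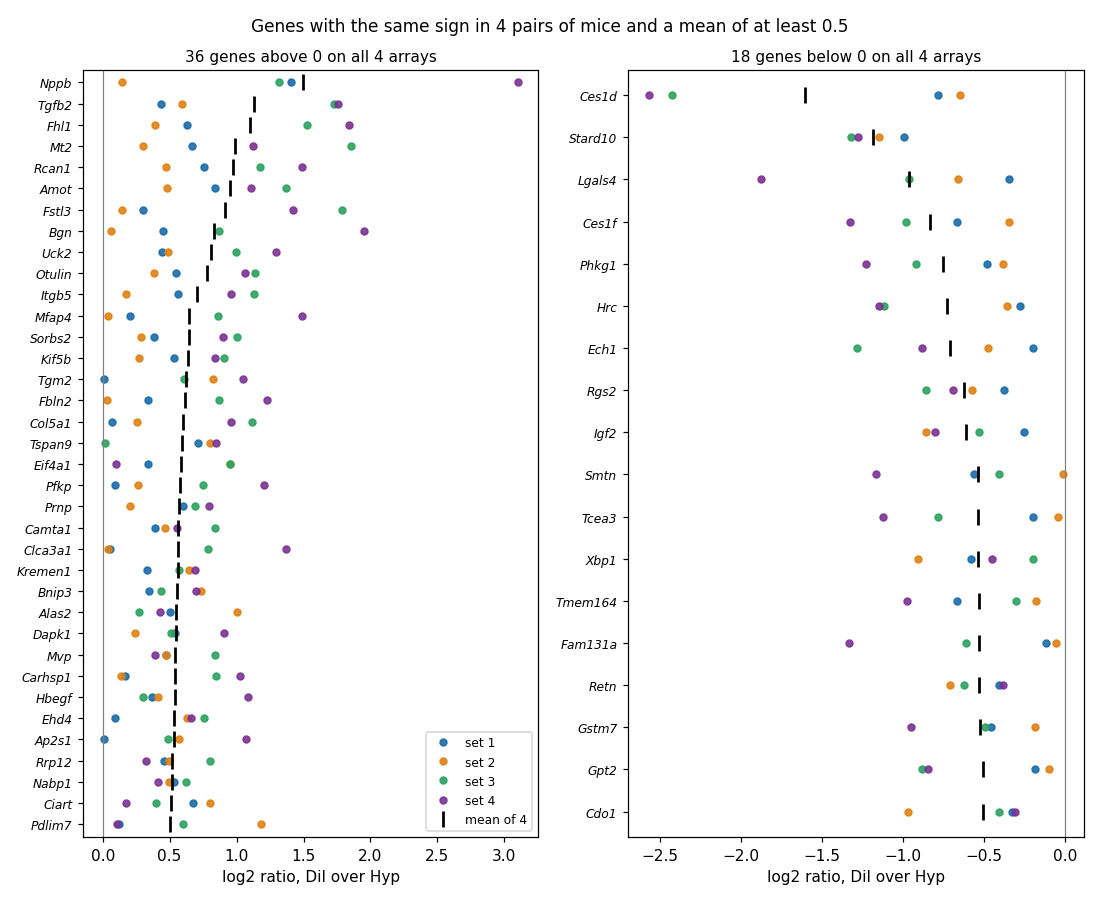
Log2 ratio of Dil over Hyp in each of the 4 sets for the 36 genes above 0 (left) and the 18 genes below 0 (right) on all 4 arrays with a mean of at least 0.5 in size. Points are single arrays and the black bar is their mean; set 4 reaches 3.10 for Nppb, while set 2 is at 0.14, and the 4 points of Stard10 lie between -1.32 and -1.0.

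Among hypertrophy markers, Nppb, Fhl1 and Rcan1 were higher in Dil in every set, and they are the 3 of 5 measured members with one sign throughout. Nppb encodes B-type natriuretic peptide, a hormone that stretched ventricles release. Its ratios in sets 1 to 4 were 1.41, 0.14, 1.32 and 3.10. The mean was 1.49 ± 0.49 (limma's moderated SE, n = 4 pairs) or 2.81-fold, with an adjusted p of 0.999 in limma. Set 4 is far above the rest and set 2 is close to 0. In limma with the dye term, the fitted Nppb difference was 2.23 without set 2 (adjusted p 0.0243, the 1 feature that then passed) and 0.75 without set 4 (adjusted p 0.346). With 3 arrays this estimate weighs most the array whose dye order is left single, which is set 4 in the first case and set 2 in the second. Rcan1 encodes an inhibitor of calcineurin that calcineurin signalling itself induces. It read 0.75, 0.47, 1.18 and 1.49, a mean of 0.97 ± 0.19, with limma's adjusted p at 0.999 over 4 arrays and at 0.0303 over 10. Its values are more even than those of Nppb, with set 2 again the lowest. Fhl1, a LIM-domain protein of the sarcomere that takes part in the response to stretch, read 0.63, 0.39, 1.53 and 1.84 (mean 1.10 ± 0.29). The other members measured were Gata4, a cardiac transcription factor, with a mean of 0.07, and Nfatc4, a calcineurin-regulated factor, with a mean of -0.27.

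The stretch of genome just before the transcription start is shown for Nppb and Stard10, the gene with the largest positive mean among those with one sign on all 4 arrays and the gene with the smallest p, and for a start of Rcan1. Sequences are from RefSeq (GRCm38.p6), 250 bases up to the start, read 5′ to 3′ on the gene's strand. Capitals mark GATAA (GATA factors), CATTCC (the M-CAT element of TEAD factors), GGAAA (the core bound by NFAT, the factor that calcineurin activates) and AAGGTCA (a half-site of estrogen-related receptors), on either strand.
Nppb, chr4:147985650-147985899, plus strand: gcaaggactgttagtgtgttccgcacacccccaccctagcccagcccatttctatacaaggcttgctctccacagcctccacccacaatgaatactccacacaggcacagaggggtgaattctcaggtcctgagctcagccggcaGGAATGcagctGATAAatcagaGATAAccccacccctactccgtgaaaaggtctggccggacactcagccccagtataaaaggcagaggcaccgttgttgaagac
Rcan1, chr16:92400079-92400328, minus strand: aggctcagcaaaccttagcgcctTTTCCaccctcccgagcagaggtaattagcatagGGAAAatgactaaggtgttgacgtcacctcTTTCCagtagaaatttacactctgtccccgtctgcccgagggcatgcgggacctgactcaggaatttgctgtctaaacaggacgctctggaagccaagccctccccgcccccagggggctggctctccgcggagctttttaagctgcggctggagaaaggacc
Stard10, chr7:101316836-101317085, plus strand: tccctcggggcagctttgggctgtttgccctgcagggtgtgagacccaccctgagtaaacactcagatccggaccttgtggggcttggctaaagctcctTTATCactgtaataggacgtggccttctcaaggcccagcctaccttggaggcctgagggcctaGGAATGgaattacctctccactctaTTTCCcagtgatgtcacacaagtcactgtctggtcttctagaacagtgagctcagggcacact

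The Nppb window holds 2 GATAA matches and 1 CATTCC match within about the last 105 bases. The Rcan1 window holds 3 GGAAA matches, while the window of its other start, at chr16:92466170-92466419 on the minus strand, has no match to any of the 4 motifs. Such matches are common. Over the 8459 windows of the 6589 named genes that had an entry, GATAA was in 14.8%, CATTCC in 10.5%, GGAAA in 54.0% and AAGGTCA in 2.73%. In the 37 windows found for 30 of the 36 genes higher in Dil the shares were 13.5%, 13.5%, 51.4% and 2.7%. For 15 of the 18 lower genes, 20 windows gave 30.0% (6 windows), 30.0% (6 windows), 60.0% and 0%. These are descriptions of letters in a window, and no share was tested.

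Agt and the receptor gene Agtr2 did not separate the groups. Of 13 listed renin-angiotensin genes 3 were measured, Agt, Agtr2 and Agtrap. The other angiotensin II receptor genes, Agtr1a and Agtr1b, were not measured. Agt, the gene this line overexpresses, read -0.86, 0.64, 0.58 and -0.64, a mean of -0.07 ± 0.32, with 2 sets on either side of 0 and a single spot with values. Against WT it read 1.83, -0.24 and 3.60 in Hyp of sets 2, 3 and 4, and 2.61, 2.28 and 2.46 in Dil of sets 1, 3 and 4. The fit over 10 arrays gave 2.07 ± 0.40 for Hyp and 2.13 ± 0.41 for Dil (SE). Hyp3 on its WT array thus did not show the higher Agt of the other carrier arrays. Agtr2, an angiotensin II receptor, read -0.00, -0.01, 0.11 and -0.11, and Agtrap, a protein that binds the other receptor type, had a mean of 0.10.

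Stard10, a gene of lipid handling, gave the lowest p of all features. It encodes a protein that carries phosphatidylcholine and phosphatidylethanolamine between membranes. Its ratios were -1.0, -1.15, -1.32 and -1.28, a mean of -1.18 ± 0.09, so Hyp exceeded Dil 2.27-fold. No set stands out, and the gene was called in the fits over 10 and over 11 arrays (limma, adjusted p 0.00387 and 0.00427). Ces1d and Ces1f, carboxylesterases that split stored triglyceride and other esters, were lower as well. Ces1d read -0.78, -0.65, -2.42 and -2.57 (mean -1.60 ± 0.42), with sets 3 and 4 far below sets 1 and 2. Ces1f read -0.67, -0.35, -0.98 and -1.33 (mean -0.83 ± 0.18). These were 3 of 21 measured genes (14.3%) of carboxylesterases and lipid storage or transfer, beside 6.51% of all features. The list median of -0.01 lay at that of all features, -0.00. Angptl4, a secreted inhibitor of lipoprotein lipase, was the 1 member above 0 on all 4 arrays (mean 0.35).

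Nuclear genes for the respiratory chain and ATP synthase lay below 0 as a body. Of 58 measured members, 55 had a negative mean, and 20 (34.5%) were below 0 on all 4 arrays, beside 6.51% of all features. The changes were small: the median was -0.20, and no member reached a mean of 0.5 in size. Sets 1 to 4 had medians of -0.11, -0.11, -0.45 and -0.10, and 44, 38, 52 and 44 of the 58 members were below 0. Of all features, 47.4%, 53.7%, 49.9% and 51.8% were below 0 in these sets. Set 3 was the lowest of the 4 sets. Complex I, which takes electrons from NADH, had 7 of 25 members below 0 on all 4 arrays, among them Ndufs7 at -0.05, -0.25, -0.54 and -0.68. Ndufa8 read -0.12, -0.26, -0.88 and -0.20.

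Cytochrome c oxidase subunits gave some of the larger values of the chain. Cox6c read -0.21, -0.74, -0.96 and -0.05 (mean -0.49 ± 0.18) and Cox7c read -0.28, -0.28, -0.70 and -0.23 (mean -0.37 ± 0.09). Both spots of Cox7c were negative in every set. Atp5e, a small subunit of the ATP synthase rotor stalk, read -0.43, -0.34, -0.40 and -0.17 (mean -0.33 ± 0.07), with set 4 nearest 0. Across complexes III to V and cytochrome c, 13 of 33 members (39.4%) were below 0 in every set, beside 6.51% of all features. Cox7a2l, which helps to join complexes into larger assemblies, was the 1 member above 0 in all sets, at a mean of 0.05. Complex III with cytochrome c, 8 genes, differed from the others in set 2, where its median was 0.19. None of these genes passed limma over 4 arrays.

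**Figure D2:**
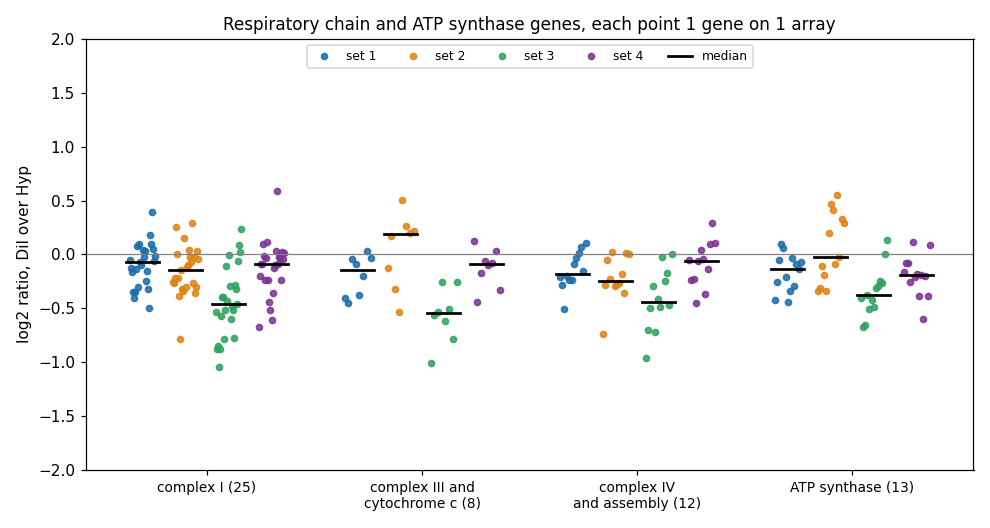
Log2 ratio of Dil over Hyp for 25 genes of complex I, 8 of complex III and cytochrome c, 12 of complex IV and its assembly and 13 of ATP synthase, each point 1 gene on 1 array. Black bars are medians; those of set 3 lie between -0.55 and -0.38 in every complex, and those of set 2 lie on both sides of 0.

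Other mitochondrial lists shared the sign of the mean but not the agreement between sets. In fatty acid oxidation, 29 of 40 measured genes had a negative mean. Only Ech1 and Hadh (5%) were below 0 in every set, under the 6.51% of all features. List medians in sets 1 to 4 were 0.03, 0.15, -0.36 and -0.54. Ech1, which isomerises the double bonds of unsaturated fatty acids, read -0.20, -0.48, -1.29 and -0.88 (mean -0.71 ± 0.20), and both of its spots were negative in every set. Hadh, a dehydrogenase of the same spiral, read -0.07, -0.08, -0.90 and -0.93. Its 2 spots did not share that sign throughout, with values of 0.05 in set 1 and 0.17 in set 2. The difference in this list was thus carried by sets 3 and 4. Pdk4, the kinase that shuts pyruvate out of the mitochondrion's oxidation, went against its list with 1.44, 1.51, 0.68 and -0.04, and is named after its values were seen.

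In the TCA cycle and pyruvate dehydrogenase, 26 of 31 genes had a negative mean (median -0.15). Idh3g, Mdh2 and Pdhb (9.68%) were below 0 in every set, beside 6.51% of all features. Their means were -0.21, -0.19 and -0.14. Single spots were above 0 for Idh3g (0.07 in set 2, 0.04 in set 4) and Mdh2 (0.04 in set 1, 0.18 in set 2). Me1, the cytosolic malic enzyme, was the 1 member (3.23%) above 0 in every set (mean 0.20), under the 6.08% of all features. Breakdown of branched-chain amino acids had a median of -0.16 over 15 genes, with -0.53 in set 4 and values from -0.18 to 0.04 elsewhere. Mmut, which converts methylmalonyl-CoA, was below 0 throughout (mean -0.27), and Auh, a hydratase of leucine breakdown, was above 0 throughout (mean 0.10). Each makes 6.67% of its list, near the 6.51% below and 6.08% above of all features. Mitochondrial ribosomal proteins had a median of -0.09, and 5 of 47 (10.6%) were below 0 in every set, beside 6.51% of all features. Mrpl42 was the farthest (mean -0.32). Cytosolic ribosomal proteins gave medians of 0.06, -0.42, -0.04 and 0.28, so sets 2 and 4 moved in opposite directions, and 1 of 66, Rpl24, had one sign throughout (mean -0.08).

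Glycolysis and glycogen genes were mixed, with 7 of 35 (20%) above 0 in every set beside 6.08% of all features. Pfkp, the platelet isoform of phosphofructokinase, read 0.09, 0.26, 0.75 and 1.2 (mean 0.58 ± 0.20), with set 4 highest and set 1 lowest. Ugp2, which makes the UDP-glucose used for glycogen, read 0.68, 0.34, 0.22 and 0.44 (mean 0.42 ± 0.10). Gyg, the primer of glycogen, had a mean of 0.39, Pgk1 of 0.31, Slc2a1, a glucose transporter, of 0.29 and Gapdh of 0.28. Phkg1, the catalytic subunit of muscle phosphorylase kinase, was the 1 gene below 0 in every set, at -0.48, -0.38, -0.92 and -1.23 (mean -0.75 ± 0.17). Slc2a4, the insulin-responsive transporter, read -0.21, 0.30, -0.53 and -1.03, so its sign differed in set 2, and it is named after its values were seen.

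**Figure D3:**
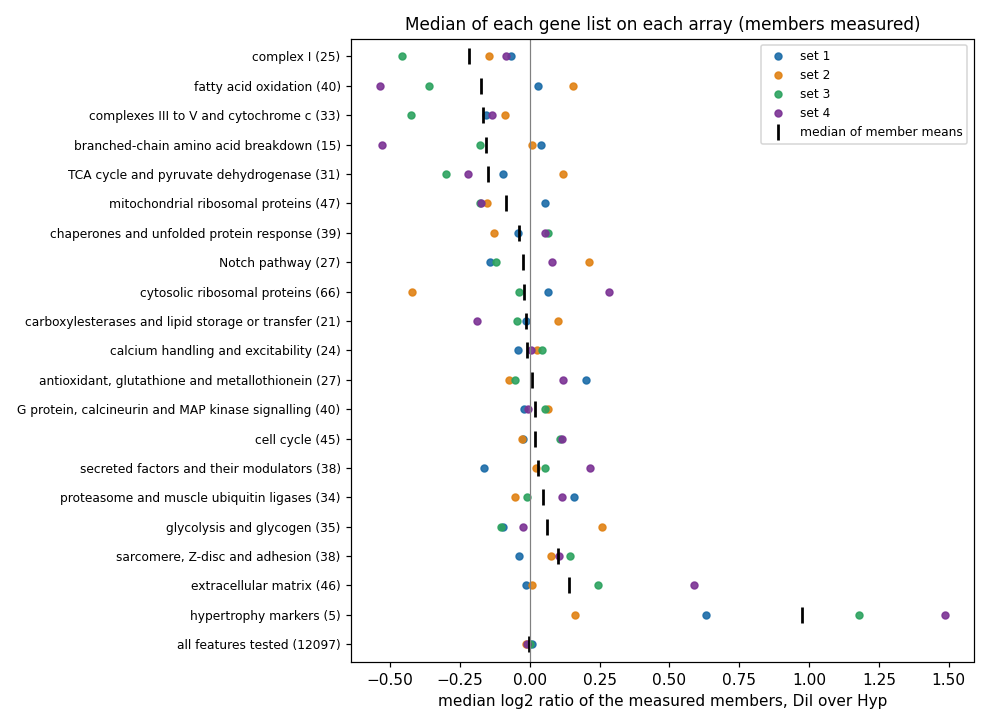
Median log2 ratio of Dil over Hyp on each array for each gene list with at least 5 measured members, and for all 12097 features. Coloured points are sets, black bars are medians of the member means, and the number measured follows each name; the hypertrophy markers lie above 0 and complex I below 0 in every set, while cytosolic ribosomal proteins run from -0.42 in set 2 to 0.28 in set 4.

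Matrix genes differed between pairs of mice. Of 46 measured genes of the extracellular matrix, 36 had a positive mean. In every set 6 (13.0%) were above 0, beside 6.08% of all features, but list medians were -0.01, 0.01, 0.24 and 0.59. Bgn, a small proteoglycan that binds collagen and growth factors, read 0.45, 0.06, 0.87 and 1.96 (mean 0.83 ± 0.32). Mfap4, a microfibril protein, read 0.21, 0.04, 0.86 and 1.49, but 1 of its 2 spots was negative in set 2 and the other in set 1. Fbln2 (mean 0.62), Col5a1 (0.60), Tnc (0.38) and Lamc1 (0.14) were the other members above 0 throughout. Larger single values came from genes that were not: Timp1, an inhibitor of matrix proteases, read 0.19, -0.37, 1.78 and 2.67, and Fn1, fibronectin, read -0.05, -0.19, 1.07 and 1.62. Both are named after their values were seen. In sets 1 and 2 the matrix list was thus at the level of all features. Serpinh1, the collagen chaperone, was the 1 member (2.17%) below 0 in every set (mean -0.32), under the 6.51% of all features.

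Fibroblast markers had medians of -0.02, -0.07, 0.25 and 0.72 in sets 1 to 4, but part of them are matrix genes. Of 15 markers 11 were measured, 9 had a positive mean and 0 had one sign in every set. The matrix list also holds 5 of the 11: Col1a1, Col1a2, Col3a1, Dcn and Lum. In set 4 these read 1.01, 1.62, 1.04, 0.72 and 0.41. The markers outside the matrix list differed in sign there. Vim read 1.19, Fstl1 0.96 and Tcf21 0.25, but Ddr2 read -0.06, Pdgfra -0.09 and Gsn -0.35. Defining fibroblast genes Pdgfra (mean -0.10) and Tcf21 (0.02) were near 0, and Col1a2 read -0.19, 0.06, 0.60 and 1.62. Their part in the matrix result was not tested, and in whole ventricles more cells of a type and more RNA per cell cannot be told apart. Of 15 cardiomyocyte markers Ryr2, Actn2 and Ttn were measured (medians -0.26, 0.06, 0.30 and -0.04), and no atrial marker was. Endothelial markers (8 of 16) had a median of 0.02, macrophage and leukocyte markers (3 of 13) of 0.02, with 0.70 in set 4 and -0.71 in set 2. Smooth muscle and pericyte markers (6 of 10) had a median of -0.13, with Smtn, smoothelin, below 0 in every set (mean -0.54) and Pdgfrb above 0 in every set (0.13). Cd4, the 1 of 10 lymphocyte markers measured, had a mean of 0.12. Erythrocyte genes Alas2, a step of haem synthesis (mean 0.55), and Slc4a1, the red cell anion exchanger (0.20), were both above 0 in every set, and they are 2 of 10 listed. Adiponectin (Adipoq, mean -0.39) and resistin (Retn, -0.53), made by fat cells, were below 0 in every set, whereas the fat cell genes Plin1, Lep and Fabp4 had means of -0.01 to 0.07.

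Secreted factors gave 5 of 38 measured genes (13.2%) above 0 and 5 (13.2%) below 0 in every set. The shares over all features were 6.08% and 6.51%. Tgfb2, a growth factor of fibrosis and valve formation, read 0.44, 0.60, 1.73 and 1.76 (mean 1.13 ± 0.29). Both of its spots were positive in every set. Hbegf, a ligand of the EGF receptor that angiotensin II receptors act through, read 0.37, 0.41, 0.30 and 1.08 (mean 0.54 ± 0.13). Outside that list, Fstl3, which traps activins, read 0.30, 0.14, 1.79 and 1.42 (mean 0.91 ± 0.33), with sets 3 and 4 several times sets 1 and 2.

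Lower secreted factors included Igf2, a fetal growth factor, at -0.26, -0.86, -0.53 and -0.80 (mean -0.61 ± 0.08). Its 3 spots were negative in every set, and set 2 was the lowest. The ratio was lower in sets 2 and 4, where Dil carried Cy5, and the fitted dye term was -0.22. Of the 54 genes above, 9 had their value farthest from 0 in set 2. H19, the imprinted RNA that neighbours Igf2, read -0.23, -0.22, -0.07 and -1.09 (mean -0.40). Lgals4, a galectin best known from gut epithelium, read -0.34, -0.66, -0.96 and -1.87 (mean -0.96 ± 0.23), with set 4 the lowest. Ccl2, a chemokine for monocytes, had a mean of -0.30, and Ltbp1, which holds latent TGF-beta in the matrix, of -0.16.

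Signalling genes were led by Amot, Rcan1 and Rgs2. Amot, a scaffold of the Hippo pathway that holds back YAP, read 0.84, 0.48, 1.37 and 1.11 (mean 0.95 ± 0.15), and limma's adjusted p was 0.999 over 4 arrays and 0.0303 over 10. Rgs2, which switches off the G protein used by angiotensin receptors, read -0.38, -0.58, -0.85 and -0.69 (mean -0.62 ± 0.10). All 3 of its spots were negative in every set. Camta1, a calcium-responsive transcription factor, had a mean of 0.56 ± 0.10. In all, 6 of 40 genes of this list (15%) were above 0 and 3 (7.5%) below 0 in every set, beside 6.08% and 6.51% of all features. Mapk14, the kinase p38 alpha, was among the lower ones at a mean of -0.22.

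Calcium handling genes had a median of -0.01, and 2 of 24 (8.33%) were above 0 and 3 (12.5%) below 0 in every set. The shares over all features were 6.08% and 6.51%. Hrc, which buffers calcium inside the sarcoplasmic reticulum, read -0.28, -0.36, -1.12 and -1.15 (mean -0.73 ± 0.20). Atp2a2, the calcium pump SERCA2, read -0.40, 0.06, -0.58 and -1.02 (mean -0.48 ± 0.19). Its sign in set 2 differed from the rest, and 2 of its 4 spots were positive there. Camk2b, a calmodulin kinase subunit, and Atp1b1, a sodium pump subunit, were above 0 in every set (means 0.30 and 0.28). A spot of Atp1b1 read -0.24 in set 3. The potassium channel Kcnd3 was below 0 in every set (mean -0.20).

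Sarcomere, Z-disc and adhesion genes had a median of 0.10. Against 6.08% of all features, 6 of 38 (15.8%) were above 0 in every set. Beside Fhl1 these were Sorbs2, an adaptor of the Z-disc (0.38, 0.28, 1.00 and 0.90), Kif5b, a microtubule motor, Pdlim7, Tln1 (talin) and Pkp2 of the desmosome. Kif5b read 0.53, 0.27, 0.91 and 0.84 (mean 0.64 ± 0.13), and its 3 spots were positive in every set. Tpm2, a tropomyosin, and Dsp, desmoplakin, were below 0 in every set (means -0.19 and -0.14). They make 5.26% of the list, under the 6.51% of all features.

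Chaperone genes had a median of -0.04 over 39 measured members, with 19 means above 0 and 20 below. List medians in sets 1 to 4 were -0.04, -0.13, 0.06 and 0.06. Of the 39 members, 7 (17.9%) were below 0 in every set, beside 6.51% of all features. Among the 7, 6 are part of the reticulum's response to unfolded protein. Xbp1, a transcription factor of that response, read -0.58, -0.91, -0.20 and -0.45 (mean -0.53 ± 0.12). Manf, a secreted stress factor, read -0.18, -1.01, -0.25 and -0.30 (mean -0.44 ± 0.13), with set 2 far below the rest, and 1 of its 2 spots was at 0.04 in set 1. Hsp90b1 and Hspa5, chaperones of the reticulum, had means of -0.31 and -0.26, Pdia3 of -0.15 and Atf6 of -0.04. The mitochondrial chaperone Hspd1 had a mean of -0.18. Hspb8, a small heat shock protein that partners the autophagy factor Bag3, read 0.34, 0.55, 0.33 and 0.43 (mean 0.41 ± 0.07), and Hspa4 had a mean of 0.34.

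None of the following genes passed limma over the 4 arrays, and Nabp1, over 10 arrays, and Kremen1, Uck2, Nabp1, Mt2 and Otulin, over 11, are among those called in the wider fits. Bnip3, a mitophagy receptor, read 0.34, 0.74, 0.43 and 0.70 (mean 0.55 ± 0.07), higher where Dil carried Cy5. Kremen1, an inhibitor of Wnt signalling, read 0.33, 0.64, 0.57 and 0.69 (mean 0.56 ± 0.08). Uck2, a pyrimidine salvage kinase, read 0.44, 0.49, 1.00 and 1.29 (mean 0.81 ± 0.17). Nabp1, a single-strand DNA binding protein, had a mean of 0.52 ± 0.07, but its 3 spots had means of 0.86, 0.80 and -0.11, so 1 spot did not show the difference. Mt2, a metallothionein, read 0.67, 0.30, 1.85 and 1.12 (mean 0.99 ± 0.24). Otulin, which removes linear ubiquitin chains, had a mean of 0.78 ± 0.16.

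The other genes chosen for a small p were, higher in Dil, Tmbim1 (mean 0.50), Aopep (0.48), Mvp (0.54), Itprip (0.39), Rrp12 (0.52) and Memo1 (0.37). Tmbim1 read 0.80, 0.21, 0.77 and 0.20, and Memo1 read 0.63, 0.05, 0.64 and 0.17, both higher where Dil carried Cy3. Usp28, called over 10 arrays, had a mean of 0.38. Lower in Dil were Chordc1 (-0.40), Cdk2ap2 (-0.41), Pank4 (-0.40), Mapk1ip1 (-0.42), Hspa12a (-0.42) and Pfdn6 (-0.38). Proteasome genes had 4 of 34 (11.8%) above 0 in every set, beside 6.08% of all features, and 0 below 0. Psmd4 had a mean of 0.25 and Psmd8 of 0.22, with a spot of Psmd8 at -0.20 in set 3. Cell cycle genes had 3 of 45 (6.67%) above 0, near the share of all features. Among them Ccnd2, cyclin D2, read 0.02, 0.48, 0.47 and 0.33, and its 7 spots ran from -0.13 to 0.20 in set 1. Antioxidant genes split with Mt2 and Gsto1 (0.24) above 0 and Gstm5 (-0.21) and Msra below 0.

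Notch pathway genes, which belong to a receptor system that restrains cardiac growth, differed in sign between sets, and 0 of 27 had one sign throughout. Notch1 read -1.42, 1.22, -0.28 and -0.02 (mean -0.12 ± 0.28), and its target Hes1 read -1.29, 1.05, -0.67 and 0.42 (mean -0.12 ± 0.16). Jag1, a ligand, read -1.45, 1.2, -0.29 and 0.06. Their large values came from sets 1 and 2, where Dil carried opposite dyes, and the fitted dye term was 0.72 for Notch1, 0.86 for Hes1 and 0.75 for Jag1, against a median size of 0.065 over all features. The part of the dye in these values was not tested beyond that fit.

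Values against WT place the differences. WT mice and both carrier groups are shared between these estimates and the direct comparison, so they are given side by side and not as further evidence (SE, fit over 10 arrays). Nppb was 0.99 ± 0.33 in Hyp minus WT and 2.54 ± 0.33 in Dil minus WT. Rcan1 was 0.59 ± 0.14 and 1.58 ± 0.14. Tgfb2 was 0.15 ± 0.24 and 1.40 ± 0.24, and Fhl1 was 0.13 ± 0.21 and 1.29 ± 0.21, so both were near WT in Hyp. Stard10 was 0.09 ± 0.11 and -1.08 ± 0.11. Ces1d was -0.67 ± 0.29 and -2.36 ± 0.29. Xbp1 and Manf had the larger estimate in Hyp, at 0.68 ± 0.17 and 0.58 ± 0.19, with 0.23 ± 0.17 and 0.14 ± 0.19 in Dil. On single arrays, Hyp minus WT in sets 2, 3 and 4 was 1.27, 0.45 and -0.02 for Xbp1 and 1.43, 0.40 and -0.01 for Manf, so set 2 was the highest and set 4 lay at WT.

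**Figure D4:**
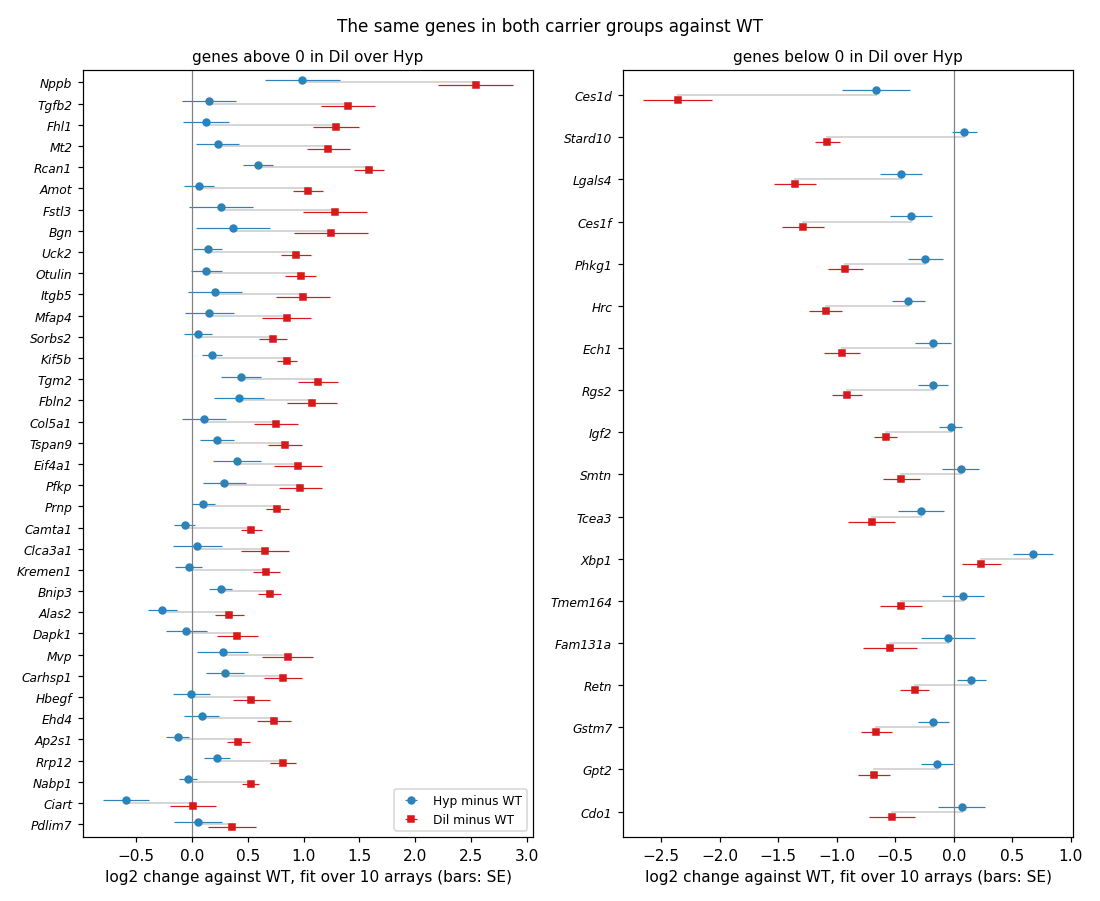
Log2 change against WT in Hyp (circles) and in Dil (squares) for the same 36 and 18 genes, from the fit over 10 arrays, with SE bars. Most squares lie farther from 0 than their circles; for Xbp1 the circle, at 0.68, is the farther one, and for Ciart the circle lies at -0.59 and the square at 0.01.

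Mice of the same labels were also linked through WT on other arrays, which gives a second reading of a pair without its direct array. After removal of a dye term estimated from the other sets, Ces1d read -2.45 directly and -2.48 through WT in set 3, and -2.61 and -2.15 in set 4. Stard10 read -1.48 and -1.12 in set 3, and -1.20 and -0.88 in set 4. Nppb read 1.19 and 1.85 in set 3, and 3.25 and 2.23 in set 4, so its readings of one pair differed by about as much as some pairs did. Other genes turned sign between the readings, such as Cdo1 in set 3 (-0.77 and 0.32) and Xbp1 in set 4 (-0.37 and 0.04). Over all 12097 features the readings correlated at 0.105 in set 3 and 0.114 in set 4, and 50.4% and 46.9% of features had the same sign. By their labels these are repeated measurements of the same mice and add no animals. In set 3 the labels of Hyp3 differ, at 5.6 mg/g with Dil3 and 5.3 mg/g with WT3. There Hyp minus WT was -0.24 directly and 1.70 through Dil3 for Agt, and 1.21 and 1.47 for Nppb. Whether both arrays hold RNA of the same Hyp3 mouse was not tested.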

How the data were processed

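Ventricular RNA of 8 mice was compared on 4 cDNA arrays with 2 colours, 25 µg of RNA per dye, per the labels' protocols. The authors deposited a table with 1 ratio per spot and array, read here as log2. What base and direction the ratios have, and how background and normalization were treated, is not stated in any source used here. The 11 columns had medians from -0.0114 to 0.0068, that is, near 0.

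Of 17664 spots, 736 at positions that the annotation never lists were taken as control spots and dropped. A single symbol was listed for 12563 spots and more than 1 for 412, and 3953 were unlisted. Spots of a gene were averaged. A feature needed a value on all 4 arrays. Ratios were turned to Dil over Hyp and fitted with limma 3.58.1 (R 4.3.3; lmFit with a dye term, eBayes, 2 residual and 2.7 prior degrees of freedom), with Benjamini-Hochberg adjustment over 12097 features. The script was checked on simulated data. The fit over 10 arrays is a generalised least squares fit with mice as random effects. It leaves out the array of WT1 and Hyp1, which does not follow the spot order of the other arrays: spots of a gene correlate at 0.00772 on it. Moving its values back by 8 of 32 print blocks was tried as an added alternative, over features with values on all 11 arrays.

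Mice of one number share an array, so each ratio is already a difference within its set, and the set was kept as the unit. Sources do not say whether a number marks a litter.

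The comparison, the gene lists and the marker lists were chosen with earlier results of these data known. Named genes are those with the smallest p and one sign on all 4 arrays (12 per direction), the 3 farthest members of each list with one sign, a fixed set (Nppb, Agt, Agtr2, Rcan1, Fhl1, Amot, Ces1d, Ces1f, Stard10, Igf2, Rgs2, Ech1, Atp2a2, Hrc, Notch1, Hes1), genes called over 10 arrays, and genes with a mean of at least 0.5 and one sign. Others are named as list members, and single ones after their values were seen, as stated. No set test was made. Alternatives are in the closing section.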

Additional observations from a re-analysis of the deposited data

Results flagged for a closer look

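Among 73 genes and 21 list medians, each with 4 values, 9 had 1 set far from the other 3, and chance alone puts about 1 in 20 groups there. Set 1 was apart for Cdk2ap2 (-0.284, nearer 0 than the rest), Usp28 (0.496, the highest) and the median of mitochondrial ribosomal proteins (0.0542, the 1 value above 0). Set 2 was apart for Manf (-1.01, the lowest) and Pank4 (-0.287, nearest 0). Set 3 was apart for Cox7c (-0.698) and Ndufb11 (-0.85), the lowest in both. Set 4 was apart for Hspa12a (-0.681, the lowest) and Psmd8 (0.446, the highest).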

How the results depend on the processing

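Features passing limma's adjusted p of 0.05 numbered 0 over the 4 arrays and also 0 without the dye term, with values needed on 3 arrays, with arrays scaled, centred or corrected by print block, with medians of spots and with robust eBayes. Leaving out 1 replicate gave 0 to 1. With the replicate block over all arrays but 1, in which each set counts once, it was 0, with 987 at an unadjusted p under 0.05. Without the replicate block it was 7 over 10 arrays and, chosen after seeing the data, 29 over 11. Features above 0 on all arrays with a mean of at least 0.5 numbered 65 to 201 when 1 replicate was left out (main 73), and those below 0 numbered 17 to 96 (main 20). Fewer arrays then have to share a sign. Set 2 gives the highest counts and set 1 the next, 112 and 58. At means of at least 0.3 and 0.7, chosen after seeing the data, the counts were 179 and 24 above, 102 and 7 below. Of 37 genes followed, 4 turned sign. Agt ran from -0.43 to 0.29 when 1 replicate was left out, and was 0.061 over 10 arrays and 0.052 with the replicate block. Agtr2 ran from -0.032 to 0.027, and was 0.00091 with centred arrays and 0.00016 with print blocks corrected. Hes1 ran from -0.28 to 0.034 and Notch1 from -0.43 to 0.18. Of 21 list medians, 3 moved by more than the spread between sets, each when 1 replicate was left out: calcium handling, to 0.06 without set 1, sarcomere genes, to 0.02 without set 2 and 0.01 without set 3, and antioxidant genes, to 0.14 without set 2. Depth per spot is unknown.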
